A study of Mus musculus with 10 samples.

Results

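The RGS proteins (regulators of G protein signaling) were examined through the 9 genes *Rgs1*, *Rgs2*, *Rgs3*, *Rgs10*, *Rgs12*, *Rgs14*, *Rgs16*, *Rgs18* and *Rgs19*, which were taken by symbol from the 26146 genes of the count table. RNA from sorted LSKCD48-CD150+ hematopoietic stem cells (HSCs, the multipotent cells that maintain blood formation) was sequenced in bulk, with 1 library per mouse, from 5 *Cited2*CTL and 5 *Cited2*CKO animals aged 8 to 12 weeks on the C57BL/6J background. *Cited2* encodes a transcriptional coregulator that binds histone acetyltransferases. Both genotypes carried the floxed allele (*Cited2* fl/fl). The *Cited2*CTL animals, labelled wildtype, had no Cre, whereas the *Cited2*CKO animals, labelled Cited2 KO, also carried *Vav-iCre*, which is active throughout the hematopoietic system and not in HSCs alone. The effect of the recombinase itself and that of the lost gene cannot be told apart in this design. Libraries are called CTL 1 to CTL 5 and CKO 1 to CKO 5 here, after their labelled numbers.

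G protein-coupled receptors act by loading GTP onto the alpha subunit of a heterotrimeric G protein, and the signal ends when the alpha subunit hydrolyses that GTP. RGS proteins share a domain that speeds up this hydrolysis, mostly on subunits of the Gi and Gq classes, and so shorten signals from receptors for chemokines, lipids, nucleotides and hormones. In blood cells they are best known for limiting chemokine-driven migration and platelet activation. *Rgs1*, *Rgs2*, *Rgs3*, *Rgs16* and *Rgs18* belong to the R4 subfamily, whose members consist of little more than the RGS domain, with the exception of long forms of *Rgs3*. *Rgs10*, *Rgs12* and *Rgs14* belong to the R12 subfamily, and *Rgs19* belongs to the RZ subfamily.

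Of the 9 genes, 6 had RefSeq promoter entries on GRCm38.p6, 10 in all. The 4 sequences shown are the 250 bases before the RefSeq start of *Rgs2* (minus strand, chr1:144004150-144004399) and *Rgs16* (plus strand, chr1:153740103-153740352), which are R4 genes of very different levels, and of the 2 starts of *Rgs3* (plus strand, chr4:62559597-62559846 and, inside the gene, chr4:62619422-62619671), the gene whose levels separated the genotypes. Each reads 5′ to 3′ on the strand of the gene. Capitals mark matches, on either strand, to 6 motifs, none of which contains another. They are the GC box with the letters GGGCGG, the core of the cyclic AMP response element with TGACG, the CCAAT box, the E-box with CACGTG, the RUNX core with TGTGGT and the GATA core with AGATAA.
Rgs2: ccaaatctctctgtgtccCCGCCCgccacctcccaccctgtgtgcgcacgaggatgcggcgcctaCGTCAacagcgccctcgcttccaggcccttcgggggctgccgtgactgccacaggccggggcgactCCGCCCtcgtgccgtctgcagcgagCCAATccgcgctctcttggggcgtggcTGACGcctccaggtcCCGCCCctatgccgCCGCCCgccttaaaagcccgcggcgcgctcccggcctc
Rgs16: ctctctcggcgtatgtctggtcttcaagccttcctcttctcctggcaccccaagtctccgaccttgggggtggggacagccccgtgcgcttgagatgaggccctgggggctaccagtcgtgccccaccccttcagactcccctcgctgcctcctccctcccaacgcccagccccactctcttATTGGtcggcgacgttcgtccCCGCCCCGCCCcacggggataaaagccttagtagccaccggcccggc
Rgs3, first start: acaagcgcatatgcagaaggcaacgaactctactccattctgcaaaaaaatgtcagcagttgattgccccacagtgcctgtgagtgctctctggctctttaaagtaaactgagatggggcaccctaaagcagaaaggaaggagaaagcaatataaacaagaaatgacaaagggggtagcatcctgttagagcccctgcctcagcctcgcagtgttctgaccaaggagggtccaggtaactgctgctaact
Rgs3, second start: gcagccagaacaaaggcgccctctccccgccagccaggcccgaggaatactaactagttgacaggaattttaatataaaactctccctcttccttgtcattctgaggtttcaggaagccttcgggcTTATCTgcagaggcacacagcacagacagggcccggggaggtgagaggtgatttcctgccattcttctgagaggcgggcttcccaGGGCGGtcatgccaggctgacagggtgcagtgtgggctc
The *Rgs2* window held 4 GC boxes, 2 cyclic AMP response cores and 1 CCAAT box, and 72.4% of its bases were G or C. The *Rgs16* window held 2 GC boxes, which overlap, and 1 CCAAT box at 66.4% G or C. The first *Rgs3* window held none of these letters at 48.4% G or C, and the second held 1 GC box and 1 GATA core at 56.8%. Among all 32851 promoter entries of the table, windows of the same length held a GC box in 32.7%, a CCAAT box in 33.8%, a cyclic AMP response core in 17.8%, a RUNX core in 14%, a GATA core in 9.99% and an E-box in 6.02%. A match is a description of the letters and was not tested as a binding site.

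Libraries held between 3058690 and 4548795 counts, and 14165 genes passed the filter on low counts. At these totals the limit that a count of 0 allows, 3 counts, lay between 0.656 and 1 CPM (counts scaled to a common library size), for counting error only. *Cited2* (chr10:17723218-17725674) was at 163.2 ± 42.7 CPM (SD, n = 5) in CTL libraries, between 101.3 and 221.6 CPM. It was at 3.80, 4.21, 5.00 and 8.30 CPM in CKO 1, CKO 2, CKO 4 and CKO 5 but at 120.1 CPM, or 508 counts, in the library labelled CKO 3, which thus went against its label. Values without that library are given with the comparison of genotypes. HSC markers were present, with all 12 of 12 tested and summed levels of 2294 to 2597 CPM in CTL and 2073 to 2368 CPM in CKO libraries. Markers of other cells were lower and overlapped between genotypes. T and NK cell sums ran from 75.6 to 120.7 CPM in CTL and from 112.3 to 160.8 CPM in CKO libraries. Only CKO 2 lay within the CTL range. Most of these sums came from *Nkg7*, at 69.7 CPM in CTL and 96.4 CPM in CKO on average (adjusted p = 0.287 by edgeR). B cell sums lay between 53.8 and 95.6 CPM, mostly from *Cd79b* at 56.4 and 55.4 CPM. Cell content was not tested. In all libraries, erythroid sums lay between 130.4 and 203.7 CPM and granulocyte and monocyte sums between 427.1 and 777.6 CPM. Of the last list *Ly6g* had no counts in any library, whereas *S100a8*, another granulocyte marker, was at 39.1 ± 21.8 CPM in CTL and 36.8 ± 13.7 CPM in CKO libraries. Because RNA was pooled over cells, fewer cells of a type and less RNA per cell cannot be told apart.

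HSCs of both genotypes carried a few RGS transcripts at very high levels and the rest at low levels. On the scale of CPM per kilobase of gene length (RPKM), which allows levels to be compared between genes, *Rgs1* was at 330.9 ± 43.3 RPKM in CTL (SD, n = 5) and 337.3 ± 34.3 RPKM in CKO libraries. *Rgs1*, which limits chemokine receptor signals in lymphocytes, thus had the highest level of the 9 genes in all 10 libraries and had rank 6 among tested genes. *Rgs18*, which is best known from megakaryocytes and platelets, followed at 161.5 ± 16.4 and 173.2 ± 18.8 RPKM. The CTL mean of *Rgs1* was 2.05 times that of *Rgs18*, and *Rgs1* lay above *Rgs18* in 10 of 10 libraries.

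*Rgs19*, the RZ member first described as an interactor of Gi alpha 3, and *Rgs2*, which acts with preference on Gq, came next and did not differ beyond their spread. *Rgs19* was at 88.4 ± 3.55 RPKM and *Rgs2* at 86.9 ± 14.1 RPKM in CTL libraries. *Rgs19* lay above *Rgs2* in 6 of 10 libraries, and their ranges overlapped. Below them the CTL level fell to 16.1 RPKM for *Rgs14*, 10.02 RPKM for *Rgs10* and 8.18 RPKM for *Rgs12*. *Rgs14* lay above *Rgs10* in 9 of 10 libraries and *Rgs10* above *Rgs12* in 6 of 10, with overlapping CTL ranges in both pairs, so the place of *Rgs10* among the R12 genes was not resolved. *Rgs14* lay above *Rgs12* in 10 of 10 libraries. *Rgs3* at 3.31 RPKM lay below *Rgs12* in 10 of 10 libraries. *Rgs16*, an inducible regulator of chemokine signals, was lowest in every library at 0.665 RPKM in CTL and 0.853 RPKM in CKO. The level of *Rgs1* was 498 times that of *Rgs16* in CTL and 395 times in CKO libraries. Of the summed CPM of the 9 genes, *Rgs1*, *Rgs2* and *Rgs18* together made up 80.2% in CTL and 81.2% in CKO libraries. The summed level of all 9 ran from 1135 to 1369 CPM in CTL and from 1210 to 1440 CPM in CKO libraries.

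**Figure D1:**
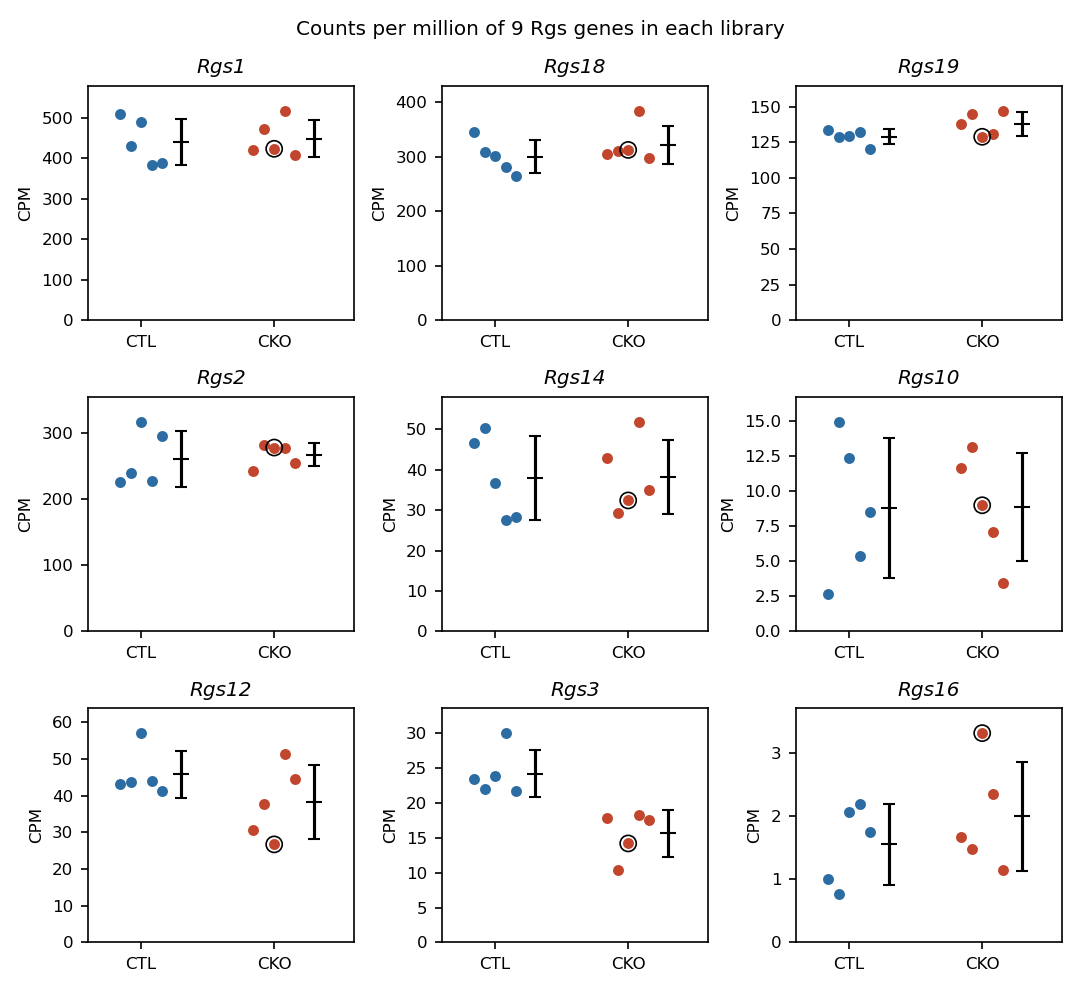
CPM of each of the 9 genes (vertical axes, each from 0) in the 5 CTL and 5 CKO libraries (1 point a library), with the mean and SD beside each group and a ring around CKO 3. The groups overlap in 8 panels, and in that of *Rgs3* all CKO points, between 10.4 and 18.2 CPM, lie below all CTL points, between 21.7 and 30.0 CPM.

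The 3 most abundant R4 genes lie in 1 stretch of chromosome 1, all on the minus strand, together with 2 further family members. *Rgs2* (chr1:143999338-144004161) is followed by *Rgs13* (start site 173.2 kb from that of *Rgs2*), *Rgs1* (chr1:144242296-144249242, 245.1 kb), *Rgs21* (563.5 kb) and *Rgs18* (chr1:144752683-144775435, 771.3 kb). *Rgs13* and *Rgs21* lie between these highly expressed genes but were near the limit of detection. *Rgs13* had 0 to 19 counts per library, or 1.84 RPKM in CTL and 1.58 RPKM in CKO on average. *Rgs21* had at most 4 counts and no counts in 6 of 10 libraries. *Rgs16* (chr1:153740349-153745468) lies on the same chromosome but outside this stretch.

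**Figure D2:**
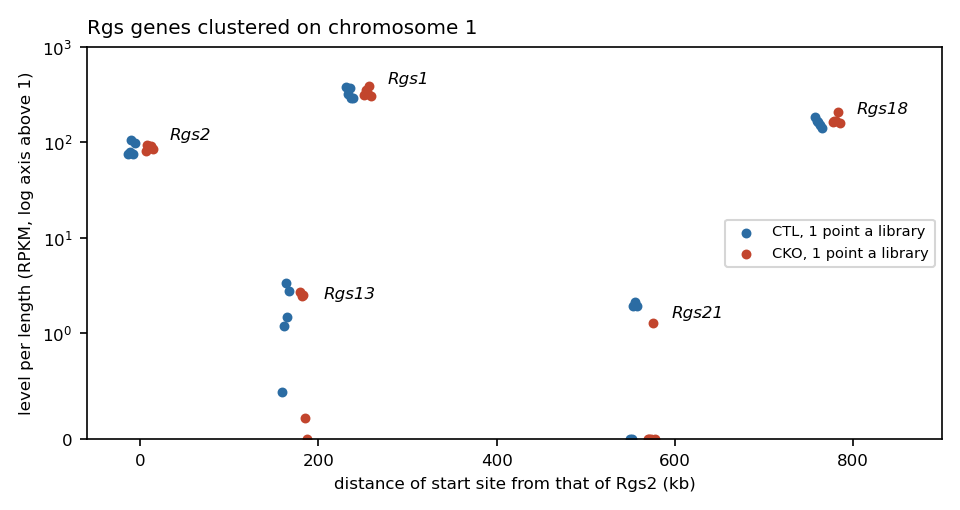
Level per gene length (RPKM, vertical axis, logarithmic above 1 and linear below) of 5 *Rgs* genes against the distance of their start sites from that of *Rgs2* (kb, horizontal axis), with 1 point a library and the points spread sideways for visibility. *Rgs1*, *Rgs2* and *Rgs18* lie between 75.0 and 388.6 RPKM in every library, and *Rgs13* and *Rgs21* lie at 3.34 RPKM or below.

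The counts of *Rgs1* hardly followed the size of the library. *Rgs1* had 1523, 1701, 1666, 1577 and 1771 counts in CTL 1 to CTL 5 and 1769, 1915, 1793, 1758 and 1772 counts in CKO 1 to CKO 5. These counts varied by 6.55% (coefficient of variation) over the 10 libraries. The slope of log2 counts on log2 library total was 0.32 for *Rgs1* and 0.50 for *Rgs18*, against 1.07 for *Rgs19* and 1.13 for *Rgs2*, where a slope of 1 means that counts follow the library total. All slopes were taken over both genotypes together, without removing genotype means. The CPM of *Rgs1* was correspondingly higher in the 3 libraries with the smallest totals (CTL 1, CTL 3 and CKO 4), at 489.8 to 516.8 CPM, than in the other 7, at 384.4 to 473.7 CPM. For *Rgs18* those ranges overlapped slightly, at 301.6 to 383.6 CPM against 264.8 to 312.5 CPM.

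*Rgs1* and *Rgs18* were also dense in counts per base of gene length, with 1.30 and 0.651 counts per base against 0.359 for *Rgs19* and 0.345 for *Rgs2*. Over all tested genes of at least 500 bases, the median slope was 1.00 in 2659 genes with 0.1 to 0.2 counts per base, 0.90 in 1767 genes with 0.2 to 0.4, 0.76 in 457 genes with 0.4 to 0.6 and 0.66 in 150 genes with 0.6 to 0.8. It was 0.56 in 40 genes with 0.8 to 1 and 0.49 in 22 genes above 1, the group that holds *Rgs1*. The highest value of any gene of that length in any library was 1.72 counts per base. *B2m* with 1.47 and *Actb* with 1.099 counts per base, which were named after their values were seen, had slopes of 0.28 and 0.37. Removal of duplicate reads is not given in the sources used here, and its part in these slopes was not tested. With slopes below 1, the CPM and RPKM of *Rgs1* and *Rgs18* also depended on the library total. This bears on the order and the folds of levels above. It bears as well on the fold changes and intervals between genotypes given below for these genes. How far it changed the order and the folds of levels was not tested. For the fold changes, a fit with the log2 library total as a covariate is given below.

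**Figure D3:**
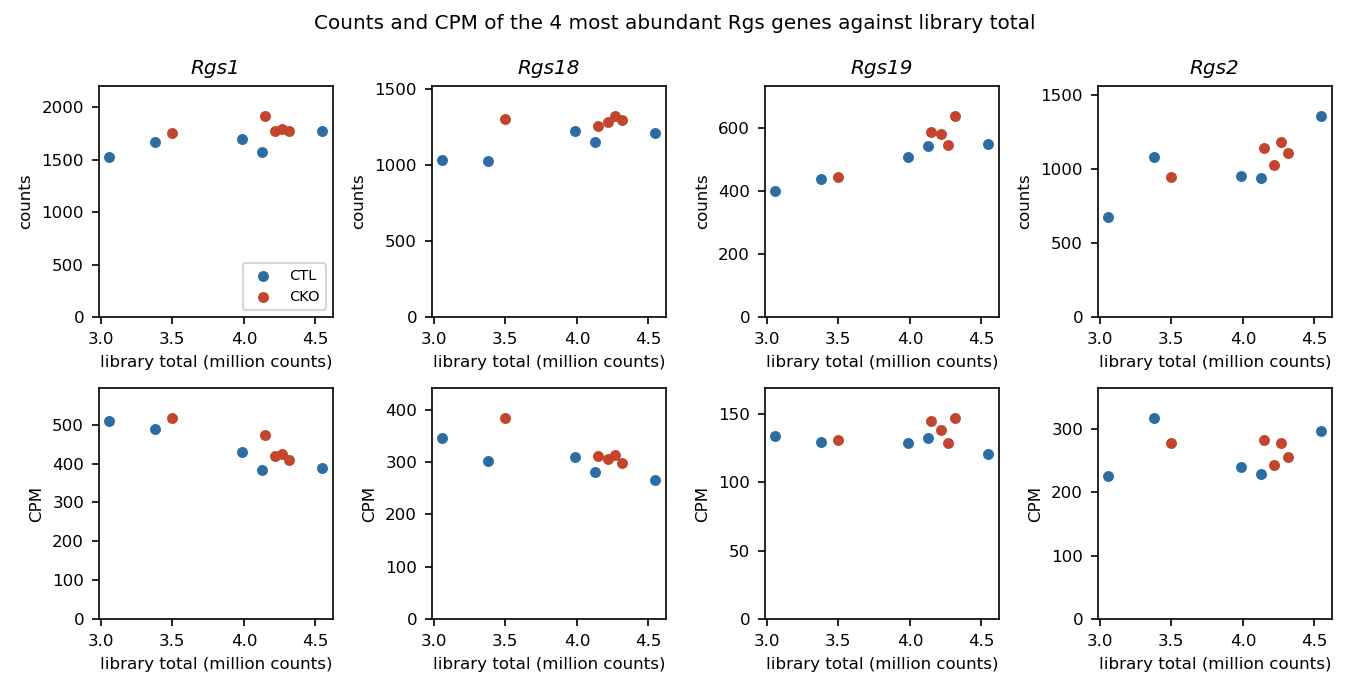
Counts (top row) and CPM (bottom row) of *Rgs1*, *Rgs18*, *Rgs19* and *Rgs2* against the total count of each library (horizontal axes), with 1 point a library colored by genotype. Counts of *Rgs19* and *Rgs2* rise with the library total, with log2 slopes of 1.07 and 1.13, whereas those of *Rgs1* hardly do, with a slope of 0.32, so that its CPM falls from left to right.

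Between genotypes none of the RGS genes passed the test. Of the 9 genes, 8 passed the filter on low counts and *Rgs16* did not. By the quasi-likelihood test of edgeR (Benjamini-Hochberg adjusted p under 0.05 and a fold change above 20%), 0 of the 8 were called, 1 had an unadjusted p under 0.05, and 0 were called by DESeq2 or limma-voom. The same edgeR thresholds called 32 of 14165 tested genes, or 0.226%, and DESeq2 called 2.54% of the genes it tested. With CKO 3 included, *Cited2* itself was not called by edgeR either (log2 fold change -2.51, adjusted p = 0.328). CPM did not overlap between genotypes for 1 of the 8 genes, against 3.33% of all tested genes. The log2 fold change of CKO over CTL was positive for 6 genes and negative for 2, with a median of 0.02 against 0.01 over all tested genes. Without the library labelled CKO 3, 0 of the 8 were called, and the log2 fold changes were 0.05 for *Rgs1*, 0.02 for *Rgs2*, -0.0018 for *Rgs10*, which turned its sign, 0.07 for *Rgs14*, 0.11 for *Rgs18* and 0.12 for *Rgs19*. Those of *Rgs3* and *Rgs12* follow with their values.

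*Rgs3* was the gene with an unadjusted p under 0.05 by edgeR without a covariate. *Rgs3* (chr4:62559847-62704001) encodes an R4 protein whose long forms carry a PDZ domain. It was at 23.4, 22.0, 23.8, 30.0 and 21.7 CPM in CTL 1 to CTL 5 and at 17.8, 10.4, 14.2, 18.2 and 17.5 CPM in CKO 1 to CKO 5. Every CKO library was thus below every CTL library, with CTL 4 the highest and CKO 2 the lowest. The log2 fold change was -0.63 (SE 0.21, 95% interval -1.07 to -0.19), with an adjusted p of 0.230 in edgeR, so that the difference did not pass the threshold among all genes. Without CKO 3 the log2 fold change was -0.59 with an adjusted p of 0.314. These values rest on 42 to 123 counts per library.

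In CPM the other R4 genes overlapped between genotypes. *Rgs1* was at 509.3, 429.7, 489.8, 384.4 and 387.5 CPM in CTL and at 420.5, 473.7, 423.8, 516.8 and 408.3 CPM in CKO libraries. Neither genotype was higher throughout, and the highest values of both came from the libraries with small totals named above. The log2 fold change of *Rgs1* was 0.03 (SE 0.09, 95% interval -0.17 to 0.23, adjusted p = 0.929 by edgeR). With the log2 library total as a covariate, an alternative chosen after seeing the data, it was 0.12 (unadjusted p = 0.0391, adjusted p = 0.389 by edgeR).

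*Rgs18* was at 344.8, 309.2, 301.6, 281.0 and 264.8 CPM in CTL and at 304.7, 311.0, 312.5, 383.6 and 298.2 CPM in CKO libraries. CKO 4 was the highest library by a wide margin, and 4 of the 5 CKO libraries lay within the CTL range. Its counts before scaling to library size did not overlap, at 1026 to 1224 in CTL and 1257 to 1322 in CKO libraries. *Rgs18* had a log2 fold change of 0.10 (SE 0.09, 95% interval -0.09 to 0.29, adjusted p = 0.671 by edgeR), and 0.03 without CKO 4. With the library total as a covariate it was 0.18 (unadjusted p = 0.00962, adjusted p = 0.258 by edgeR).

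*Rgs2* was at 225.7, 239.7, 316.9, 228.1 and 296.5 CPM in CTL and at 243.4, 282.8, 278.4, 278.4 and 254.9 CPM in CKO libraries. All CKO values lay inside the CTL range, with CTL 3 and CTL 5 above and CTL 1, CTL 2 and CTL 4 below every CKO library. The coefficient of variation was 16.2% in CTL and 6.51% in CKO libraries, and the difference in spread was not tested. *Rgs2* had a log2 fold change of 0.03 (SE 0.10, 95% interval -0.18 to 0.24, adjusted p = 0.919 by edgeR). *Rgs16* had 3, 3, 7, 9 and 8 counts in CTL and 7, 6, 14, 8 and 5 counts in CKO libraries, too few for the test, and the ranges overlapped. On its other strand *Rgs16* overlaps an exon of *Gm28513*, and the use of strand in counting is not given in the sources used here.

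The R12 genes also overlapped between genotypes. *Rgs12* and *Rgs14* encode scaffold proteins that combine the RGS domain with Ras-binding domains and a GoLoco motif, whereas *Rgs10* encodes a small protein with little beyond the RGS domain. *Rgs12* (chr5:34949445-35039644) was at 43.1, 43.7, 57.0, 43.9 and 41.1 CPM in CTL and at 30.7, 37.6, 26.7, 51.5 and 44.5 CPM in CKO libraries. CKO 1, CKO 2 and CKO 3 lay below every CTL library, whereas CKO 4 and CKO 5 lay within the CTL range. *Rgs12* had a log2 fold change of -0.26 (SE 0.18, 95% interval -0.65 to 0.12, adjusted p = 0.588 by edgeR), and -0.16 without CKO 3. *Rgs12* overlaps an exon of *Gm43791* on the other strand.

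*Rgs14* (chr13:55369732-55384687) was at 46.5, 50.3, 36.8, 27.5 and 28.2 CPM in CTL and at 42.8, 29.2, 32.4, 51.7 and 35.0 CPM in CKO libraries. Both genotypes spanned nearly the same range, and the log2 fold change was 0.02 (SE 0.21, 95% interval -0.43 to 0.46, adjusted p = 0.982 by edgeR). *Rgs10* (chr7:128373621-128418758) was at 2.68, 14.9, 12.4, 5.36 and 8.53 CPM in CTL and at 11.7, 13.1, 8.98, 7.06 and 3.46 CPM in CKO libraries. Its highest and lowest values were both CTL libraries, and its spread was the widest of the 8 tested genes named at the start, with coefficients of variation of 56.8% in CTL and 43.1% in CKO against 17.1% and 16.7% from counting alone. The log2 fold change of *Rgs10* was 0.01 (SE 0.47) with a 95% interval of -1.004 to 1.02, which spans a difference of 2 times in either direction.

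*Rgs19* (chr2:181688419-181693977) was the steadiest of the 9 genes. It was at 133.8, 128.6, 129.1, 132.1 and 120.3 CPM in CTL and at 137.9, 145.0, 128.8, 130.5 and 146.8 CPM in CKO libraries. CKO 1, CKO 2 and CKO 5 lay above every CTL library, and CKO 3 and CKO 4 within the CTL range. The coefficients of variation were 4.02% and 5.91%, against 4.53% and 4.23% from counting alone. *Rgs19* had a log2 fold change of 0.10 (SE 0.07, 95% interval -0.06 to 0.25, adjusted p = 0.616 by edgeR).

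The direction of 3 R4 genes turned with a joint correction for GC content and gene length. *Rgs1* and *Rgs18* are poor in G and C, with 35.9% and 33.4% of their longest transcripts against a median of 48.8% over tested genes, and *Rgs2* has 43.6%. After each library was corrected in this way, the log2 fold change was -0.17 for *Rgs1*, -0.10 for *Rgs18* and -0.08 for *Rgs2*, the opposite sign in each case. *Rgs3* at 54.3%, *Rgs12* at 54.5% and *Rgs19* at 52.5% G or C kept their directions, with -0.53, -0.13 and 0.18. None of the 8 genes was called after this correction. In this fit the adjusted p of *Rgs3* was 0.668.

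**Figure D4:**
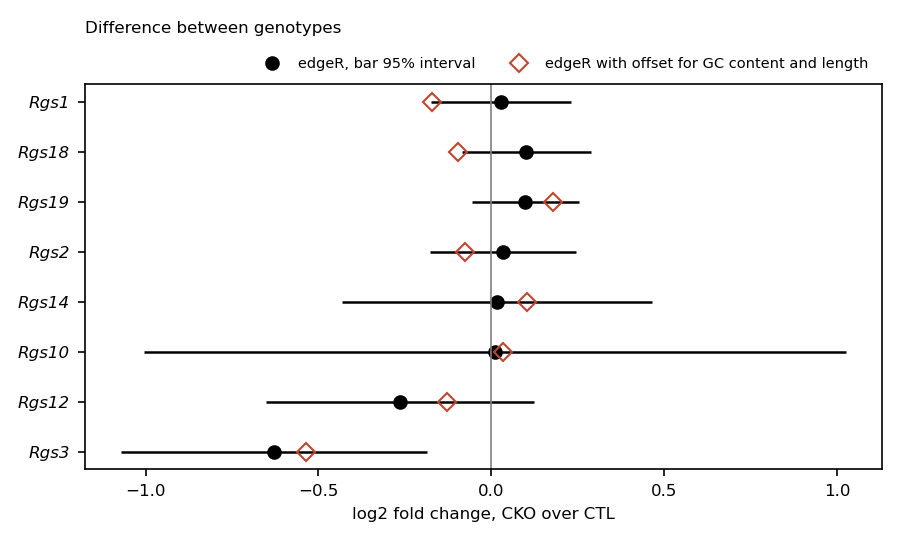
Log2 fold change of CKO over CTL (horizontal axis) for the 8 tested genes, ordered by CTL level from top to bottom, with filled points and 95% intervals from edgeR and open diamonds from edgeR after correction for GC content and length. The interval of *Rgs3*, from -1.07 to -0.19, lies below 0 and the other 7 intervals include 0, and the diamonds of *Rgs1*, *Rgs18* and *Rgs2* lie on the other side of 0 from their points.

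Co-variation between animals of the same genotype was tested over all 28 pairs of the 8 genes, of which 0 passed after adjustment and 2 had an unadjusted p under 0.05. After the mean of each genotype was subtracted, *Rgs1* and *Rgs18* correlated across the 10 libraries with Pearson's r = 0.832 (permutation p = 0.00897, adjusted 0.183) and Spearman's rho = 0.879 (permutation p = 0.00666, adjusted 0.186). *Rgs14* and *Rgs18* correlated with r = 0.795 (permutation p = 0.0131, adjusted 0.183) and rho = 0.830 (permutation p = 0.0133, adjusted 0.186). Without the 2 libraries farthest from the median, r was 0.678 and 0.741. *Rgs1* and *Rgs18* share the dependence on library total given above. The counts of *Rgs14*, with a slope of -0.07, did not follow the library total either. The part of the library total in both correlations was not tested.

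The genes most like *Rgs1* over the 10 libraries were *Ptma*, which encodes prothymosin alpha (r = 0.947, rho = 0.806), and the chaperone genes *Hspa8* (r = 0.941, rho = 0.939) and *Hsp90aa1* (r = 0.920, rho = 0.830). These had 0.692, 0.574 and 0.504 counts per base and slopes on the library total of 0.54, 0.22 and 0.55, so that they too followed the library total weakly. Those most like *Rgs3* were *Trim14* (r = 0.976, rho = 0.867), *Plbd2* (r = 0.934, rho = 0.794) and *Txnrd2* (r = 0.924, rho = 0.915). Their log2 fold changes were -0.40, -0.48 and -0.46, with adjusted p of 0.177, 0.117 and 0.109 by edgeR, and 0 of the 3 were called. These likenesses were picked as the highest among all tested genes and are a description. Genotype means were not removed here, and *Rgs3* itself separated the genotypes. The negative log2 fold changes of the genes most like it thus follow from how they were picked.

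The remaining genes with *Rgs* names were low, and *Rgs7bp* and *Rgs9bp* among them encode proteins that bind RGS proteins. Of 15 further genes, 6 were tested and 0 were called by edgeR, DESeq2 or limma-voom, with 0 at an unadjusted p under 0.05, 4 positive and 2 negative log2 fold changes and a median of 0.09. *Rgs7bp*, whose product anchors R7 proteins to the membrane, had the highest level per length, with 28.6 ± 3.35 CPM in CTL and 32.2 ± 8.86 CPM in CKO (log2 fold change 0.17, adjusted p = 0.749 by edgeR). *Rgsl1* had the smallest p with a log2 fold change of 0.87 (adjusted p = 0.564) on 8.3 counts per library. The other 9, *Rgs4*, *Rgs5*, *Rgs6*, *Rgs7*, *Rgs8*, *Rgs20*, *Rgs21*, *Rgs22* and *Rgs9bp*, did not pass the filter.

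The G protein subunits on which RGS proteins act were present and were not called. Of 16 alpha subunit genes, 12 were tested and 0 were called by edgeR, DESeq2 or limma-voom, with 0 higher and 1 lower at an unadjusted p under 0.05. *Gnai3*, a Gi alpha subunit and the most abundant per length, was at 333.6 ± 15.1 CPM in CTL and 370.6 ± 34.8 CPM in CKO (log2 fold change 0.15, adjusted p = 0.393). *Gna11*, a Gq class subunit, had -0.43 (adjusted p = 0.360). Of 17 beta and gamma genes, 12 were tested and 0 were called by any of these tools, with 2 lower at an unadjusted p under 0.05. *Gng11* was the most abundant per length with a log2 fold change of 0.04. *Gnb5*, the beta subunit that pairs with R7 family RGS proteins, was at 40.4 ± 2.71 CPM in CTL and 30.8 ± 2.30 CPM in CKO without overlap (-0.40, adjusted p = 0.222 by edgeR).

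Among 66 genes for receptors, 46 were tested and 1 was called by edgeR, against 0.226% of all tested genes. *P2ry1*, a Gq-coupled receptor for ADP known from platelets, rose from 41.0 ± 8.15 CPM in CTL to 86.9 ± 7.02 CPM in CKO, a log2 fold change of 1.08 (SE 0.14, adjusted p = 0.00558 by edgeR), and the groups did not overlap. *P2ry1* was called in all 21 alternatives, with 1.09 without CKO 3. DESeq2, which called 2.54% of all genes it tested, also called *F2r*, a thrombin receptor (0.47), and *Adgre5*, which encodes CD97 (-0.57). CPM did not overlap between genotypes for 2 receptor genes higher and 1 lower in CKO, against 3.33% of all tested genes. *Adgrg1*, which encodes GPR56 and was the most abundant per length, was at 778.2 ± 80.4 CPM in CTL and 663.4 ± 55.0 CPM in CKO (-0.23, adjusted p = 0.253 by edgeR). Of the 46, 9 were higher and 4 lower at an unadjusted p under 0.05, 29 had a positive log2 fold change, and the median was 0.13 against 0.01 over all tested genes, of which 821 were higher and 1003 lower at that threshold.

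The steps after the receptor were not called. All 7 tested receptor kinase and arrestin genes had negative log2 fold changes, with a median of -0.05. *Grk2* was the most abundant per length at -0.03, *Grk4* had the smallest p at -0.56 (adjusted p = 0.694 by edgeR), and 0 of 7 had an unadjusted p under 0.05. Of 29 effector genes, 25 were tested and 0 were called, with 1 higher and 2 lower at an unadjusted p under 0.05. *Plcb2*, the most abundant per length, had -0.16 (adjusted p = 0.522), and *Pik3cb* had 0.94 (adjusted p = 0.276) on 8.63 CPM in CTL and 16.5 CPM in CKO. Of 14 other regulators, 13 were tested and 0 were called, with 0 at an unadjusted p under 0.05. They included *Ric8a*, a chaperone and exchange factor of alpha subunits (-0.06), and *Gpsm2*, a GoLoco protein (0.21, adjusted p = 0.502). DESeq2 and limma-voom called 0 genes in these 3 lists.

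*Rgs1*, *Rgs2* and *Rgs16* are known to be induced by cell activation, so immediate early genes were set beside them. Of 27 such genes, 24 were tested and edgeR and limma-voom called 0, with 1 higher and 4 lower at an unadjusted p under 0.05. *Fos*, the most abundant per length, was at 562.4 ± 102.4 CPM in CTL and 548.2 ± 75.5 CPM in CKO (log2 fold change -0.04, adjusted p = 0.927 by edgeR). *Egr1* was at 624.4 ± 66.2 CPM in CTL and 460.0 ± 63.4 CPM in CKO (-0.44, adjusted p = 0.0781 by edgeR), and DESeq2 called it as lower. The summed CPM of the list ran from 3957 to 6167 in CTL and from 3949 to 5498 in CKO libraries. It was highest in CTL 3, which also had the highest *Rgs2* of all libraries, and its part in that value was not tested.

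Among the markers of multipotent progenitors, *Cd48*, whose product was gated out in the sort, rose from 21.6 ± 5.53 CPM in CTL to 49.0 ± 9.16 CPM in CKO (log2 fold change 1.18, adjusted p = 0.0264 by edgeR). Of the 7 markers in this list, 2 were called by edgeR, both higher in CKO, against 0.226% of all tested genes. The list was mixed, with a positive log2 fold change for 4 and a negative one for 3. At an unadjusted p under 0.05 by edgeR, 2 were higher and 1 was lower. The summed progenitor markers overlapped, at 621.0 to 865.4 CPM in CTL and 650.7 to 863.9 CPM in CKO libraries. Of 12 HSC markers 0 were called by edgeR or limma-voom, with 2 higher and 2 lower at an unadjusted p under 0.05, and DESeq2 called 1 as lower. Megakaryocyte and platelet markers, relevant to *Rgs18*, summed to 667.8 to 825.0 CPM in CTL and 690.0 to 848.7 CPM in CKO libraries. Their sum was highest in CKO 4, the library with the highest *Rgs18*, and their part in that value was not tested.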

How the data were processed

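RNA was sequenced from sorted HSCs of 5 *Cited2*CTL and 5 *Cited2*CKO mice, grouped by the genotype in their labels. The values deposited by the authors are raw counts per gene symbol, made with Rsubread from alignments by HISAT2 to GRCm38, and come with a table of gene lengths. Annotation, use of strand, reads matching several genes and removal of duplicates are not given in the sources used here. Totals of 3058690 to 4548795 counts per library leave genes with few counts imprecise. These are counts assigned to genes, whereas the paper reports far more sequenced reads per sample on average.

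The 9 genes, the gene lists and the tests were chosen with earlier results of these data known. Counts were tested in R 4.3.3 with edgeR 4.0.16 (filterByExpr, TMM, quasi-likelihood F test with robust dispersion, no covariate) on all 14165 genes passing the filter, with Benjamini-Hochberg adjustment over all of them. The common biological coefficient of variation was 25.3%. CPM and RPKM used TMM-scaled totals of the tested genes, and log2 CPM a prior count of 2. Correlations used 100000 permutations within genotype. The procedure was tested on simulated data. Replicates of a genotype differed beyond sampling noise (chi-square per degree of freedom of at least 4.74).

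All 9 genes and *Cited2* were named, and of each list the called genes, the gene highest per length and the gene with the smallest p. For *Rgs1* and the gene with the smallest p among the 9, the 3 most correlated genes were added. *B2m*, *Actb*, *F2r*, *Adgre5*, *Ly6g*, *S100a8*, *Rgs9*, *Rgs11*, *Rgs17* and the RGS genes of chromosome 1 were named after their values were seen. Some genes that this rule would name are not reported here. Alternatives were DESeq2 1.42.0, limma-voom (limma 3.58.1), other scalings and filters, the replicate number as a block, a loess correction of each library for GC content and gene length (span 50%), looser thresholds and each library left out. The library total as a covariate was added after seeing the data. Gene positions and GC content came from GENCODE on GRCm38, and promoters from RefSeq on GRCm38.p6.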

Additional observations from a re-analysis of the deposited data

Results flagged for a closer look

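Within each genotype, the highest or lowest library was compared with the others for the 9 genes and *Cited2*, 20 groups in all, of which chance alone would single out about 1. In 4 groups 1 library stood apart. *Rgs3* was at 29.98 CPM in CTL 4, against 23.81 CPM in the next CTL library, and without CTL 4 its mean level in CTL was 3.11 in place of 3.31 RPKM. *Rgs12* was at 57.03 CPM in CTL 3, with 194 counts, against 43.87 CPM in the next. *Rgs18* was at 383.6 CPM in CKO 4 against 312.5 CPM in the next, in the CKO library with the smallest total. *Cited2* was at 120.1 CPM in the library labelled CKO 3 against 8.296 CPM in the next.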

How the results depend on the processing

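Of the 8 tested genes, of which *Rgs10* entered 20 alternatives, 0 were called under any of the 21 alternatives. *Rgs3* (log2 fold change -0.69 to -0.52, adjusted p 0.110 to 0.668), *Rgs12* (-0.39 to -0.13) and *Rgs19* (0.07 to 0.18) kept their direction in all of them. With the correction for GC content and length the values turned to -0.1716 for *Rgs1*, -0.0763 for *Rgs2* and -0.097 for *Rgs18*, and with this correction plus the replicate block to -0.1929, -0.0719 and -0.1264. *Rgs10* turned to -0.0026 with total counts, -0.0095 without the filter and -0.0899 with the library total as a covariate, and *Rgs14* to -7e-04 without the filter. Leaving out 1 library gave -0.0309 to 0.0785 for *Rgs1*, -0.0212 to 0.1078 for *Rgs2*, -0.2205 to 0.2842 for *Rgs10* and -0.1185 to 0.1384 for *Rgs14*. The cause of these turns was not tested.

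Over all genes edgeR called 32, DESeq2 341, edgeR at an adjusted p under 0.1 without a fold threshold 127, and edgeR with the GC and length correction 8, or 12 with the replicate block added. Leaving out 1 library gave 8 to 42, the most without CKO 3 and the fewest without CKO 2. Among the genes of the RGS and G protein lists 1 was called, against 3 by DESeq2, 2 at the looser threshold and 2 with the library total as a covariate, and 1 to 1 with 1 library left out.

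Libraries of both genotypes carry the numbers 1 to 5, but same-numbered libraries did not deviate together (correlations -0.0953 to 0.2077, and only number 5 correlated best with its own number), so the numbers were not taken as pairs. The replicate block alone called 24 genes, 19 of them among the 32, and 0 of the 8 tested RGS genes. At the counts of *Rgs16*, 3 to 14 per library, no difference could be tested, and *Rgs10* with 8 to 59 counts left an interval of -1.004 to 1.02.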

Other observations

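The counts of the less abundant RGS genes also followed the library total unevenly. Genotype was not removed from these slopes and no error was estimated for them. *Rgs3* was lower in CKO libraries and *Rgs10* had only 8 to 59 counts, and the part of either in the slopes was not tested. On the log2 scale the slope of counts on the library total was 2.38 for *Rgs10* at 0.0399 counts per base, 0.32 for *Rgs3* at 0.0106, 0.11 for *Rgs12* at 0.0290 and -0.07 for *Rgs14* at 0.0623 counts per base. These genes lie far below the density at which the median slope of all genes dropped, and their counts varied by 18.3% (*Rgs12*) to 48.6% (*Rgs10*) over the 10 libraries. Of the low family members that passed the filter, *Rgs11* was at 7.05 ± 3.07 CPM in CTL and 4.98 ± 2.31 CPM in CKO, *Rgs9* at 5.44 ± 1.90 and 5.43 ± 3.25 CPM, and *Rgs17* at 5.32 ± 1.22 CPM in CTL and 6.36 CPM on average in CKO libraries.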
